A study of Mus musculus with 4 samples.

Results

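The AMPA and kainate receptor subunits were followed in the brain of newborn mice whose dams had received titanium dioxide nanoparticles during pregnancy. The genes are Gria1, Gria2, Gria3 and Gria4, which encode the AMPA receptor subunits GluA1 to GluA4, and Grik1, Grik2, Grik3, Grik4 and Grik5, which encode the kainate receptor subunits GluK1 to GluK5. They were chosen by name, and every probe that is not a control and carries a RefSeq accession of one of them was read. This gave 14 probes of 9 genes, of 55681 probes and 20656 named genes on the array. A probe was tested if at least 2 of the 4 arrays read it well above background, which 13 of the 14 and 31919 of all probes met.

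Gene expression was read on one-color microarrays, where a brighter spot (a higher intensity) means more of the mRNA that its probe binds. All animals were C57BL/6 mice (C57BL/6J by the protocol), with no genetic change named in the labels, and whole brain was taken on postnatal day 1. Dams of the Sham group received 25 μL of vehicle into the trachea, and dams of the TiO2-H group the same volume of a TiO2-NP suspension, 100 μg per mouse, on gestational day 10.5 by the protocol and day 14 by the sample titles. There were 4 arrays, 1 for the males and 1 for the females of each exposure, and each held 1 RNA pool to which every dam, 5 in Sham and 6 in TiO2-H, gave 2 offspring. A pool hides the spread between animals and between litters, so each group has n = 1, and both pools of an exposure were drawn from the same dams of that exposure group as far as the protocol tells. The p-values below compare pools of both labelled sexes, 2 arrays against 2, and measure only the spread between these pools.

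Both receptor families are tetrameric ion channels opened by glutamate. AMPA receptors carry most of the fast excitatory current at synapses of the brain, and whether they let calcium pass depends on the presence of GluA2 and on the editing of its mRNA. Kainate receptors act on both sides of the synapse and tune excitability and transmitter release. GluK1 to GluK3 can form channels by themselves, whereas GluK4 and GluK5 bind glutamate with high affinity but need one of the former as a partner.

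The study asked whether prenatal exposure altered the methylation of CpG islands together with mRNA levels. Methylation was not analysed here, but the promoter windows show how many CpG sites lie close to the start of these genes. RefSeq sequences (GRCm38.p6) of the 250 bases before and 50 bases after the start were matched for 6 genes, Gria2, Gria4, Grik2, Grik3, Grik4 and Grik5. Those of Grik3 and Grik5, with the most and the fewest CpG sites of the 6, and of Gria2 and Grik2, which share a count, are shown 5′ to 3′ on the strand of the gene, with each CG in capitals (a motif that reads CG on both strands).

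Gria2 (chr3:80802786-80803085, minus strand): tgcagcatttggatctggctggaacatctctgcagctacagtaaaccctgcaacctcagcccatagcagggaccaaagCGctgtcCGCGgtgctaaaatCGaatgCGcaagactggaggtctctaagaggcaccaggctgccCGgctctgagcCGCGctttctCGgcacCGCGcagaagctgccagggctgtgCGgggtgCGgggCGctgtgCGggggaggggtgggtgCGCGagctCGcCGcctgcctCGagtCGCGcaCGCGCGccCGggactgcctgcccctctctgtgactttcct
Grik2 (chr10:49788705-49789004, minus strand): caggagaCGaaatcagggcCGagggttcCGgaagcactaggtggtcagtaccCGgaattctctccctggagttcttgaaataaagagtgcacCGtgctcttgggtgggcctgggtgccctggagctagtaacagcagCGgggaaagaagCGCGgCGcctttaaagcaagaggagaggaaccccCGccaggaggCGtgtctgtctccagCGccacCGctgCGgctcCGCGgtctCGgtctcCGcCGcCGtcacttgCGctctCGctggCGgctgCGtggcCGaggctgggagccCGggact
Grik3 (chr4:125490446-125490745, plus strand): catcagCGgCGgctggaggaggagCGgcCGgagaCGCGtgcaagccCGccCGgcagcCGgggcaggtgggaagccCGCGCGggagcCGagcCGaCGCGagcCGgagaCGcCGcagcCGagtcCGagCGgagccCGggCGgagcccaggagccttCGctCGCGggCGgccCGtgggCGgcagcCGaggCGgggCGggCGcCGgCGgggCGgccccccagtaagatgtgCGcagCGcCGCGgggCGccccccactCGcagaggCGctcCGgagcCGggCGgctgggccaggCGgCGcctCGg
Grik5 (chr7:25072320-25072619, minus strand): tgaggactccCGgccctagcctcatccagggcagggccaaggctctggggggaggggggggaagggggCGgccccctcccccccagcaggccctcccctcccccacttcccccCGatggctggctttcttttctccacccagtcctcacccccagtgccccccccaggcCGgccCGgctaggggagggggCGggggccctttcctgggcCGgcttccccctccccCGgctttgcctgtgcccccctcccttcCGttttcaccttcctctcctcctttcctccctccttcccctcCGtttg

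The window of Grik3 held 50 CG, that of Grik4 42, those of Gria2 and Grik2 26 each, that of Gria4 17 and that of Grik5 10. Over 32851 promoter windows of the same length the median was 7 CG (quartiles 3 and 20), and 94.6% held at least 1. Thus 99.1% of windows held fewer CG than Grik3 and 56.5% fewer than Grik5. A CpG count is a feature of the sequence and says nothing about its methylation in these brains.

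The arrays themselves went against some of the sex labels. Xist, transcribed from the inactive X chromosome, read 17.9 (Sham male), 276 (Sham female), 347 (labelled TiO2-H male) and 5.36 (labelled TiO2-H female) as processed signal. The Y-linked Ddx3y read 1418, 142, 7.18 and 1783 on these arrays, and in Sham Eif2s3y read 3519 (male) and 419 (female). The Sham female array thus carried Y-linked signal beside Xist, and the TiO2-H arrays read the opposite of their labels. For this reason male and female are used for all arrays only as labels, and sex was left out of the test. A single slide carried the 4 arrays, the Sham pools in its first row and the TiO2-H pools in its second, so that slide row, litter and exposure cannot be told apart. Signals were divided by the 75th percentile of each array, which was 795 to 810 for Sham and 867 to 871 for TiO2-H. Between 56.2% and 61.2% of spots were well above background, and no spot was saturated.

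All 13 subunit probes had a higher mean in TiO2-H than in Sham after scaling (12 with quantile normalization, where Grik5 turned, or with normexp, a model-based background correction, where 1 Grik2 probe turned), and 52.4% of all probes tested did. Without scaling the median of all probes moved to 0.12 and 82.4% of them were higher, so that each difference is given relative to the scaled arrays. No subunit probe passed the test (0 of 13 at an adjusted p under 0.05, limma with Benjamini-Hochberg adjustment over all probes), and neither did any other probe (0%, lowest adjusted p = 0.105 in limma). The adjusted p of the subunit probes ran from 0.259 to 0.944 in limma. At an unadjusted p under 0.05, 4 of the 13 were higher in TiO2-H, beside 10.8% of all probes. The median log2 difference between TiO2-H and Sham was 0.13 over the subunit probes, with a range of 0.0094 to 0.38, and 0.0091 over all probes tested. Counting the probe with the highest signal for each gene, it was 0.13 over 9 subunit genes and 0.0077 over 15253 genes.

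Both TiO2-H arrays were above both Sham arrays for 10 of 13 subunit probes, 6 of 7 AMPA and 4 of 6 kainate, against 29.2% of all probes. With the normexp correction this held for 5 of 13, the second probe of Gria2, both of Gria3, the first of Gria4 and that of Grik1, against 28.0% of all probes. For none of the 13 were both TiO2-H arrays below both Sham arrays, against 24.6% of all probes. The probes of one gene share their target, and all probes share the 4 pools, so that these counts are not independent of each other. In whole brain, more cells that carry an mRNA and more mRNA per cell cannot be told apart. With 2 arrays against 2, an exact permutation test of a single value cannot give a two-sided p below 0.33. The dot plot of single arrays shows these positions for each probe.

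**Figure D1:**
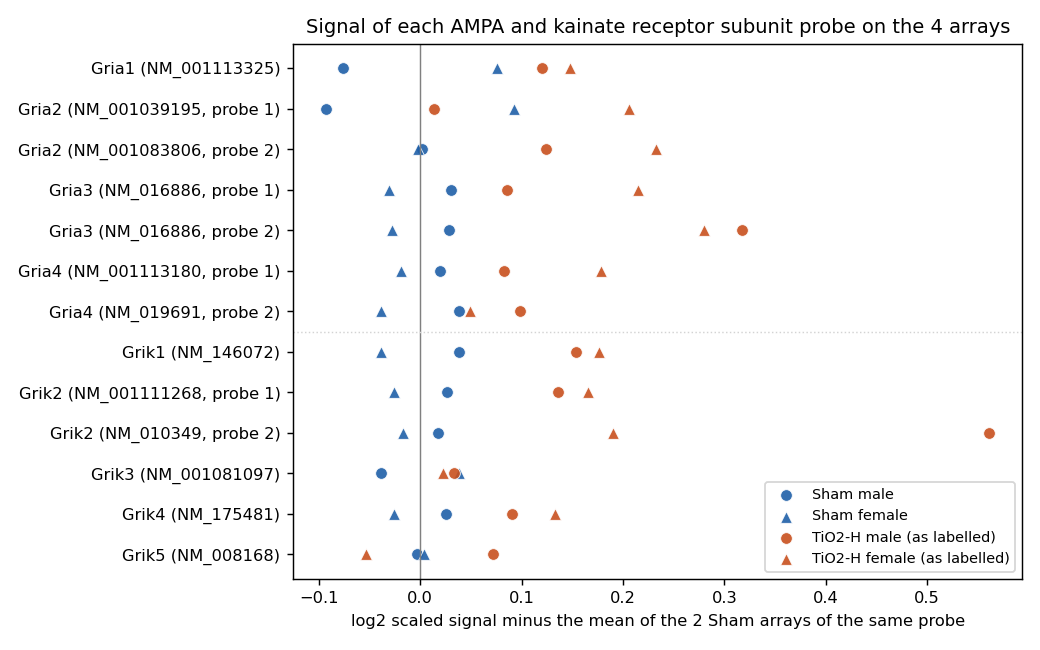
Log2 scaled signal of each of the 13 tested subunit probes on the 4 arrays (x axis), given as the difference from the mean of the 2 Sham arrays for that probe, with 1 row per probe, AMPA above and kainate below the dotted line; 1 point is 1 pooled array. Both TiO2-H points lie to the right of both Sham points for 10 of the 13 probes (5 with normexp), the exceptions being Gria2 (NM_001039195), Grik3 and Grik5.

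Among the AMPA receptor subunits, Gria3 gave the lowest adjusted p of all subunit probes, though it did not pass. Gria3 is X-linked and encodes GluA3, a subunit that assembles mainly with GluA2 in forebrain neurons. Its second probe (NM_016886; probes of a gene are numbered by their signal) had processed signals of 238 (male) and 225 (female) in Sham and 312 (labelled male) and 305 (labelled female) in TiO2-H. Both TiO2-H arrays were thus above both Sham arrays, and after scaling the difference was 0.30 on the log2 scale (SE 0.048, 95% interval 0.16 to 0.44, adjusted p = 0.259 in limma), or 1.23-fold. The first probe, of the same accession, read 726, 683, 807 and 886 in the same order. It was also higher on both TiO2-H arrays, by 0.15 (SE 0.067, 95% interval -0.045 to 0.35, adjusted p = 0.360 in limma), so that both probes of Gria3 differed in the same direction. Without TiO2-H female the difference of the first probe was 0.086.

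Gria2 encodes GluA2, the subunit whose edited form blocks calcium entry. The second probe (NM_001083806) read 202 (male) and 198 (female) in Sham and 236 (male) and 255 (female) in TiO2-H. The groups did not overlap, and the log2 difference was 0.18 (SE 0.057, 95% interval 0.011 to 0.35, adjusted p = 0.290 in limma). The first probe (NM_001039195) read 491, 548, 565 and 649. Its scaled values were -0.72 and -0.54 in Sham and -0.62 and -0.42 in TiO2-H, so that the groups overlapped, and its log2 difference of 0.11 came with the widest interval of the AMPA probes (SE 0.11, 95% interval -0.20 to 0.42). Here the pools labelled female were above those labelled male of the same exposure, by 0.19 on the log2 scale in Sham and 0.19 in TiO2-H. This holds for the labels only, since the sex-linked mRNAs went against those of the TiO2-H arrays. With single arrays left out, the difference of the first probe ran from 0.013 (without TiO2-H female; 0.017 without Sham male) to 0.21 (without TiO2-H male; 0.20 without Sham female).

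Gria1 encodes GluA1, which is delivered to synapses during activity-dependent strengthening. Its probe (NM_001113325) read 1519 (male) and 1656 (female) in Sham and 1863 and 1906 in TiO2-H, in the same order of labels. The groups did not overlap after scaling, with a log2 difference of 0.13 (SE 0.071, 95% interval -0.071 to 0.34). The pools within Sham differed by 0.15, and the difference of Gria1 was 0.059 without Sham male and 0.21 without Sham female.

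Gria4 encodes GluA4, which is prominent at young excitatory synapses and in some interneurons. The first probe (NM_001113180) read 1676, 1602, 1875 and 2011, and the second (NM_019691) 538, 501, 600 and 582. On both probes both TiO2-H arrays were above both Sham arrays after scaling. The log2 differences were 0.13 (SE 0.056) and 0.074 (SE 0.053), and both intervals included 0. The first was 0.083 without TiO2-H female, and the second ran from 0.036 (without Sham female) to 0.11 (without Sham male), with 0.049 without TiO2-H male.

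Among the kainate receptor subunits, Grik2 had the highest value and also the largest error. Grik2 encodes GluK2, the principal subunit of kainate receptors in the forebrain. The second probe (NM_010349) was dim, at 63.8 on the Sham male and 61.1 on the Sham female array, where the lowest signals well above background were 30.4 and 31.7. It read 99.6 on the TiO2-H male and 77.3 on the TiO2-H female array, so that both were above Sham but lay 0.37 apart from each other on the log2 scale. The log2 difference was 0.38 (SE 0.14, 95% interval -0.048 to 0.80, adjusted p = 0.324 in limma). Without the TiO2-H male array it was 0.19, without the TiO2-H female array 0.56, and with the normexp correction 0.087. The value of this probe thus differed with single pools and with the normexp setting. That setting also used median signals and an offset of 50, so the part of the correction itself was not tested. The first probe (NM_001111268) read 135, 128, 156 and 160, with both TiO2-H arrays again above Sham. Its log2 difference was 0.15 (SE 0.046, 95% interval 0.015 to 0.29, adjusted p = 0.283 in limma). With the normexp correction this value was -0.015 and the groups overlapped.

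Grik1 encodes GluK1, which is found on interneurons and sensory neurons. Its probe (NM_146072) read 591 and 550 in the Sham pools and 685 and 698 in the TiO2-H pools. Both TiO2-H arrays were higher than both Sham arrays, by 0.17 on the log2 scale on average (SE 0.051, 95% interval 0.018 to 0.31, adjusted p = 0.282 in limma). The second probe of Gria2, the second of Gria3, the first of Grik2 and that of Grik1 were the 4 whose 95% interval lay above 0. This was 4 of 13, beside 10.8% of all probes that were higher in TiO2-H at an unadjusted p under 0.05 in limma. With normexp the first Grik2 probe turned to -0.015.

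Grik3 encodes GluK3, a subunit with low sensitivity to glutamate. Its first probe (NM_001081097) read 2570 and 2661 in the Sham pools and 2892 and 2880 in the TiO2-H pools. After scaling these were 1.67, 1.74, 1.74 and 1.73, so that the Sham female array was the highest of the 4 and the groups overlapped. The log2 difference was 0.028 (SE 0.050, 95% interval -0.12 to 0.17). A second probe of the same accession, with signals of 16.3 to 30.4, was at background level by the scanner's call on all 4 arrays and was given no fold.

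Of the high-affinity subunits, Grik5 had the smallest difference of all subunit probes. Grik4, encoding GluK4, which is enriched in the CA3 field of the hippocampus, read 3119, 2954, 3491 and 3611 (NM_175481), with no overlap of the groups after scaling and a log2 difference of 0.11 (SE 0.048, 95% interval -0.028 to 0.25). Grik5, encoding GluK5, a widespread partner of GluK2, read 5064, 4993, 5712 and 5256 (NM_008168). The scaled values of Grik5 were 2.64 and 2.65 in Sham and 2.72 and 2.59 in TiO2-H, so that the TiO2-H arrays lay on either side of both Sham arrays. Its log2 difference was 0.0094 (SE 0.062, 95% interval -0.17 to 0.19).

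**Figure D2:**
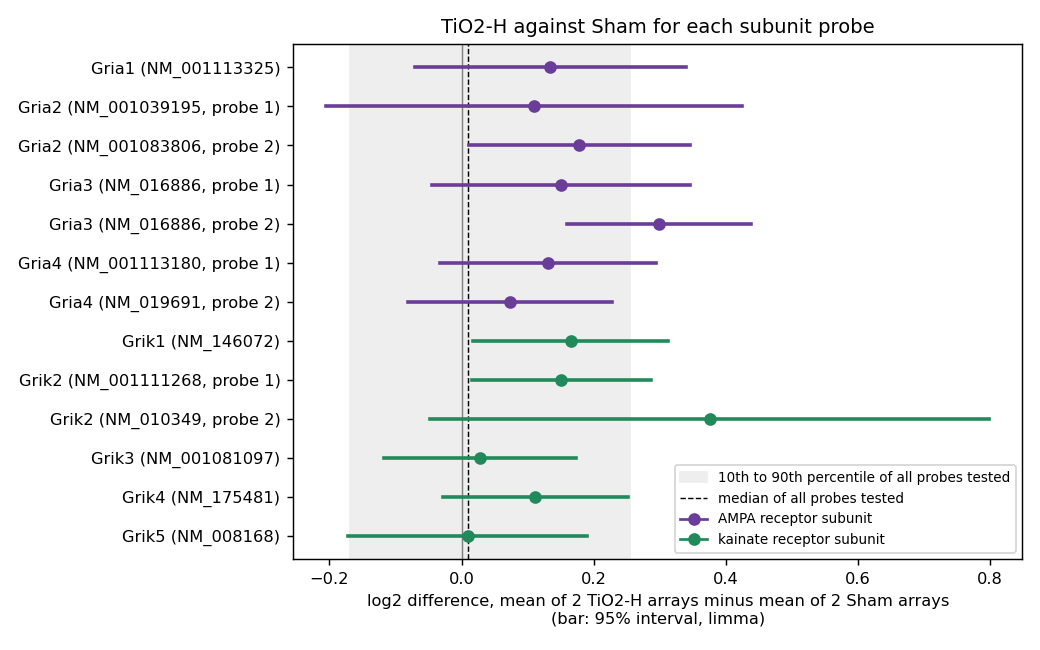
Log2 difference between the mean of 2 TiO2-H and the mean of 2 Sham arrays (x axis) for each tested subunit probe, with its 95% interval from limma as a bar, over a grey band from the 10th to the 90th percentile of all probes tested (-0.17 to 0.26) and a dashed line at their median. All 13 points lie above 0 (12 with quantile normalization or normexp) and 11 of them within the band, while the second probes of Gria3 (0.30) and Grik2 (0.38) lie beyond it.

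The plot of differences with their intervals sets the subunits against the whole array. The 10th and 90th percentiles of all probes lay at -0.17 and 0.26, and of the 13 subunit probes 11 fell between them. In the 4 genes with a pair of tested probes, Gria2, Gria3, Gria4 and Grik2, both probes were higher in TiO2-H (other than the first Grik2 probe under normexp, at -0.015), and their log2 differences lay 0.057 to 0.22 apart.

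The methods of the study called an mRNA changed at 1.5-fold or 0.67-fold within a sex. By this rule none of the 13 subunit probes was past either limit on the arrays labelled male, where 4.79% of all probes were, or on those labelled female, where 3.68% were. The nearest was the second probe of Grik2 on the arrays labelled male, at 1.46-fold, with 1.15-fold on the arrays labelled female. With 1 array on each side these ratios have no test. On the arrays labelled male 13 of 13 subunit probes were higher in TiO2-H (52.7% of all probes), with a median log2 ratio of 0.11, and on those labelled female 11 of 13 (51.7% of all probes), with a median of 0.19. The exceptions on the arrays labelled female were Grik3, at -0.016, and Grik5, at -0.057. With the TiO2-H arrays exchanged between the sexes, as the sex-linked mRNAs were read, the number past the limits was again 0 in both pairs. The second Grik2 probe was then just short of 1.5-fold, at a log2 ratio of 0.58 for labelled TiO2-H male over Sham female.

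**Figure D3:**
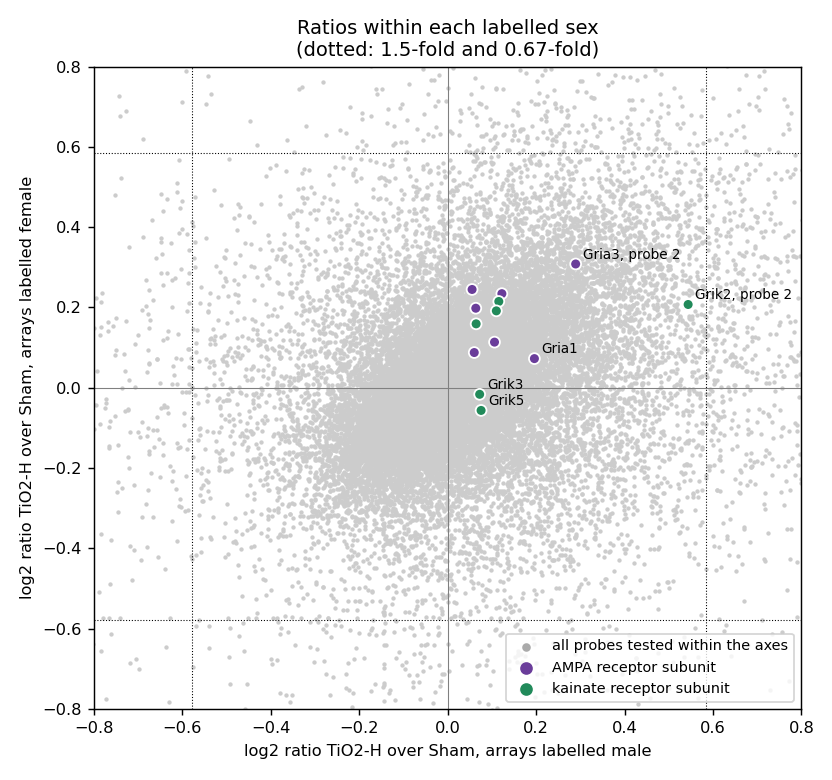
Log2 ratio of TiO2-H over Sham on the arrays labelled male (x axis) and labelled female (y axis), with 1 point per probe, grey for all probes tested and colored for the subunits; dotted lines mark 1.5-fold and 0.67-fold, and 1285 probes lie outside the axes, which end at 0.8. All 13 subunit probes lie inside the dotted lines, 11 of them in the upper right quadrant.

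The plot of both ratios also shows how wide the array as a whole was. The robust SD (scaled from the median absolute deviation) of the log2 ratio over all probes was 0.17 on the arrays labelled male and 0.16 on those labelled female, against 0.11 between both Sham arrays and 0.11 between both TiO2-H arrays. The medians of the log2 ratio over all probes were 0.011 and 0.0064 on the arrays labelled male and female, beside 0.11 and 0.19 over the subunits.

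The auxiliary subunits that travel with these receptors were read next, each gene by its probe with the highest signal. No gene of any list below passed the test. Of the 15 AMPA receptor auxiliary subunits (the TARP, cornichon and Shisa proteins and others that set trafficking and gating), 9 had a higher mean in TiO2-H and 6 a lower one, with a median of 0.069. Both TiO2-H arrays were above both Sham arrays for 7 and below for 3. Of all probes tested, 52.4% had a higher mean, 29.2% had both TiO2-H arrays above and 24.6% both below. Cacng8, the hippocampal TARP gamma-8, was dim at 55.4 and 65.2 in Sham and 85.0 and 76.3 in TiO2-H, a log2 difference of 0.31 (SE 0.12, adjusted p = 0.330 in limma). Shisa9, which slows the recovery of AMPA receptors from desensitization, read 652 and 632 in Sham and 645 and 591 in TiO2-H, a log2 difference of -0.17 (SE 0.064, adjusted p = 0.319 in limma). Both kainate receptor auxiliary subunits were higher in TiO2-H without overlap, Neto1 by 0.17 (SE 0.041, adjusted p = 0.266 in limma) and Neto2 by 0.057 (SE 0.047).

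Of the 9 intracellular scaffold and trafficking partners, 8 were tested, 7 with a higher mean in TiO2-H (52.4% of all probes). Their median was 0.10. Grip2, which binds the tail of GluA2 and GluA3, read 239 and 258 in Sham, 279 on the TiO2-H male and 474 on the TiO2-H female array, a log2 difference of 0.43 (SE 0.29, adjusted p = 0.488 in limma). The ratio was 0.13 on the arrays labelled male and 0.74 on those labelled female, and the groups overlapped after scaling. Dlg1, which encodes SAP97, a partner of GluA1, differed by 0.21 (SE 0.079, adjusted p = 0.317 in limma) without overlap. Of the 8 extracellular synaptic partners, 5 were tested, with a median of 0.012. C1ql2, a ligand of kainate receptors at mossy fiber synapses, was at 0.12 (SE 0.079), and Lrrtm2, a postsynaptic adhesion protein that binds AMPA receptors, at -0.023 (SE 0.079). A second tested probe of Lrrtm2, with a lower signal, was at 0.12. Of the 3 RNA editing enzymes, 2 were tested and were lower on both TiO2-H arrays after scaling, as were 24.6% of all probes. Their median was -0.060 (0.054 without scaling). Adarb1, which edits the Gria2, Grik1 and Grik2 mRNAs, was at -0.065 (SE 0.043), and Adar at -0.055 (SE 0.051).

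**Figure D4:**
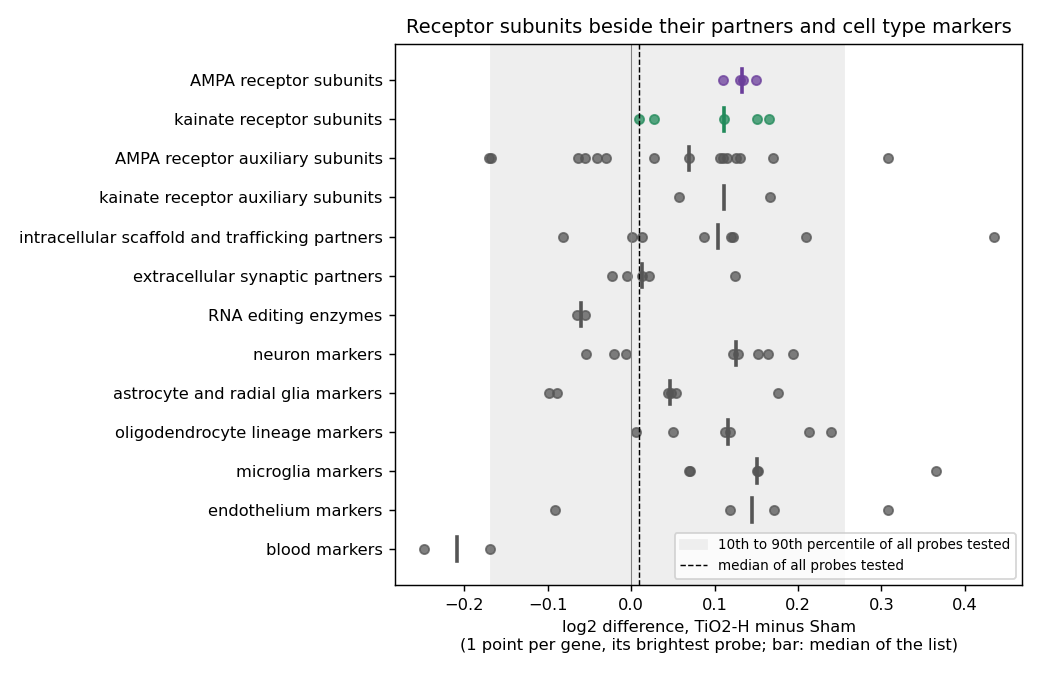
Log2 difference between TiO2-H and Sham (x axis) of each gene by its probe with the highest signal, in 1 row for each list of receptor subunits, partners and cell type markers, with a bar at the median of the list and the band and dashed line of all probes as before. The 9 receptor subunits lie between 0.0094 and 0.17, all to the right of 0 (Grik5 turned with quantile normalization and Grik2 with normexp). The AMPA receptor auxiliary subunits spread to both sides, and both kainate receptor auxiliary subunits lie to the right of 0.

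The plot by list places the subunits beside the markers of the cells in the tissue. All 8 neuron markers were well above background on the 4 arrays. Their median log2 difference was 0.13, like that of the subunits, and 5 of 8 were higher in TiO2-H (52.4% of all probes). Snap25 was at 0.19 and Map2 at 0.16, whereas Stmn2 was at -0.0061 and Tubb3 at -0.055, these genes being named after their values were seen. Medians were 0.046 over 6 astrocyte and radial glia markers, 0.12 over 6 oligodendrocyte lineage markers, 0.15 over 5 microglia markers and 0.14 over 4 endothelium markers, and -0.21 over 2 blood markers. The medians of neuron, oligodendrocyte lineage, microglia and endothelium markers were thus near that of the subunits and that of blood markers was below 0 (also so under no scaling, quantile normalization and normexp), and their part in the subunits' values was not tested. They take only the probe with the highest signal for each gene, and other tested probes of some markers differed. Of the neuron markers, Rbfox3 was at -0.021 by the probe used and at -0.0026 and -0.19 by its other probes. Dcx was at 0.15 by the probe used and at 0.054 and 0.085 by others, and Map2 at 0.16 and 0.24. Csf1r was at 0.15 by the probe used and at -0.053 and 0.0085 by its other probes. Kdr was at -0.091 by the probe used and at 0.35 by its other probe.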

How the data were processed

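The authors hybridized Cy3-labeled RNA pools to Agilent arrays and deposited the processed intensity of each spot, from which Agilent Feature Extraction (10.10.1.1) had subtracted the local background, without scaling between arrays. The deposited value table held the same intensity, equal within 0.01% for all 59305 spots that are not controls. Here spots marked as outliers were left out, spots of a probe averaged, and log2 of the signal over the array's 75th percentile used. Probes well above background on at least 2 of 4 arrays were kept, and a dim value was raised to its array's lowest signal among spots well above background. The arrays gave 1 value per group. limma 3.58.1 (R 4.3.3) compared 2 TiO2-H with 2 Sham arrays without sex, with Benjamini-Hochberg adjustment over all 31919 probes. Its check on simulated data used 2-fold changes and a common spread for all probes, so it does not cover the smaller subunit differences. The rest was done in Python 3.11.15 with pandas 2.3.3 and numpy 2.4.6.

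Accessions were named through the RefSeq table of GRCm38.p6, which named 27229 of 55681 probes (48.9%). Every subunit probe is reported, and of each partner list the 2 genes with the largest absolute log2 difference. 1 further list is not reported here. The members and lists were chosen with earlier results of these data known. Normexp (offset 50) was run on median signals, the per-spot signal that the scanner columns give. The other alternatives were no scaling, quantile normalization, other filters, no floor, marked spots kept, 1 probe per accession, the deposited table, sex as a term, exchanged TiO2-H arrays, a 2-fold threshold and each array left out. The number of arrays limits the precision.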

Additional observations from a re-analysis of the deposited data

Results flagged for a closer look

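Grik3 and Grik5 differed in opposite directions by labelled sex. The log2 ratio of TiO2-H over Sham of Grik3 (NM_001081097) was 0.072 for the pair labelled male and -0.016 for the pair labelled female. That of Grik5 (NM_008168) was 0.076 and -0.057 on the same pairs. Each ratio rests on 1 array against 1, all 4 values are under the robust SD of all probes on their pair (0.17 and 0.16), and the difference between the labelled sexes was not tested. Since Xist and the Y-linked mRNAs went against the sex labels of the TiO2-H arrays, these directions hold for the labels only.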

How the results depend on the processing

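The 15 alternatives include each single array left out, for which no test result is given. No subunit probe passed an adjusted p of 0.05 in limma under any alternative that kept every array (0 to 0 probes). Over all probes, the count rose from 0 to 2 without scaling, where the lowest adjusted p was 0.0494, and the number at an unadjusted p under 0.05 ran from 2982 without a filter to 9109 without scaling, beside 5296 as reported. The number of subunit probes with a higher mean in TiO2-H was 12 or 13 under every alternative, 12 of 12 where 1 probe stood for each accession. Without a filter it was 13 of 14, the second Grik3 probe, at background, being fitted there and not higher. This probe read 18.9 and 16.3 in Sham and 30.4 and 23.2 in TiO2-H before dim values were raised to a floor. That floor was 30.4 and 31.7 in Sham and 29.5 and 23.3 in TiO2-H, so the direction of its fit rests on the floor. The number with both TiO2-H arrays above both Sham arrays was 5 with normexp (28.0% of all probes), 13 without scaling (58.9%), 10 of 14 without a filter (16.8%) and 9 or 10 under the 6 other alternatives for which it was counted, which leave out the sex terms and left-out arrays. These 2 counts were added after seeing the data. Without a filter, probes at background were raised to each array's lowest signal well above background, and 32.1% of all probes were higher in TiO2-H. The share of 16.8% is thus not a like comparison for the subunit probes. On the arrays labelled male 1 probe, the second of Grik2, was past 1.5-fold without scaling, where the median of all probes was 0.12 and that of the subunits 0.25.

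Of 194 values of single probes, 190 kept their sign and 4 reversed. The first Grik2 probe was -0.015 with normexp, and Grik5 was -0.00067 with quantile normalization. With each array left out in turn, Grik3 ran from -0.011 (without Sham male) to 0.066, and Grik5 from -0.053 (without TiO2-H male) to 0.072. The cause was not tested. The 1 pool per group limits each value. The second Grik3 probe, called well above background nowhere, entered only the fit without a filter and is not among these values. With sex as a term the lowest adjusted p of a subunit probe in limma was 0.391 as labelled and 0.420 with the TiO2-H labels crossed.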
